A study of Homo sapiens with 15 samples.

Results

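The expression of 4 human genes, SPRR2D (ENSG00000163216), KRTAP3-1 (ENSG00000212901), KRT37 (ENSG00000108417) and IGFL1 (ENSG00000188293), was followed across RNA-seq libraries of SW480, an established human colorectal adenocarcinoma line. They are 4 of the 57905 genes in the deposited table, and each symbol has 1 row there. They were picked because measured values put them among the most changed genes: SPRR2D, KRTAP3-1 and KRT37 among the largest increases in cells with a hairpin, and IGFL1 among the largest decreases and in the difference between LPS responses. Their hairpin differences, and every contrast of IGFL1, are therefore given as descriptions without a test.

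The 4 groups each had 3 libraries, counted as columns of values. For PINT shRNA1 the labels list 6 samples, 2 for each of 3 RNA numbers, with a single column per number. Whether such a column was made from 1 sample of its pair or from the pair merged is unknown. The n = 3 of this group, and the SD, SE and p-values that use it, therefore rest on columns. PINT shRNA1+LPS cells held a lentivirus-delivered short hairpin RNA meant to silence the long non-coding RNA PINT and received lipopolysaccharide (LPS) at 1 µg/ml for 4 h, and PINT shRNA1 cells carried the hairpin without LPS. LPS cells had no hairpin and the same LPS exposure, and control cells had neither, with PBS as the vehicle in the protocol. All groups are SW480 cells in DMEM with serum, and a group with a control hairpin is not among the labels. The hairpin's target, the vector and any selection of transduced cells cannot be told apart. The labels do not say whether the 3 libraries of a group came from separate cultures, and p-values then reflect the spread among these libraries alone, which may be technical.

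The targeted gene went against the label. LINC-PINT (ENSG00000231721) had 3.54, 4.00 and 4.08 FPKM (mapped fragments scaled by transcript length and library total) in the PINT shRNA1+LPS libraries, against 2.40, 2.82 and 1.91 FPKM in the LPS libraries. It had 4.55, 5.26 and 5.34 FPKM in the PINT shRNA1 libraries, against 2.88, 2.56 and 2.51 FPKM in the control libraries. The hairpin libraries were higher in both pairs, with no overlap, so "PINT shRNA1" names below only the libraries labelled that way, and directions are drawn between labels. FPKM summed to between 409248 and 421487 a library. The number of genes above 0 was 30725 to 31961 in the hairpin libraries, against 27078 to 28430 in the others. Total counts are unknown. Relative depth, with control replicate 1 set to 1, was 1.3 to 1.51 in PINT shRNA1+LPS, 0.914 to 1.05 in PINT shRNA1, 0.848 to 0.859 in LPS and 0.809 to 1 in control libraries. Its part in the results was not tested.

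In skin, dying keratinocytes build a cornified envelope, a protein shell that transglutaminases cross-link beneath the plasma membrane, and SPRR2D encodes 1 of the small proline-rich proteins built into it. Hair is made of hair keratin filaments set in a matrix of keratin-associated proteins. KRT37 encodes a type I hair keratin, and KRTAP3-1 a keratin-associated protein of the hair fibre. IGFL1 encodes a small secreted protein of the insulin growth factor-like family, which binds the receptor IGFLR1. None of these structures is a normal product of the intestinal epithelium.

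The SPRR2 genes lie side by side on chromosome 1. Coding sequences of SPRR2D, SPRR2A and SPRR2B are nearly identical, which bears on how reads are shared out among these genes. The coding sequences below, without the stop codon, are from GENCODE 29 and have 216 bases each. Capitals mark the bases that differ from SPRR2D.
SPRR2D: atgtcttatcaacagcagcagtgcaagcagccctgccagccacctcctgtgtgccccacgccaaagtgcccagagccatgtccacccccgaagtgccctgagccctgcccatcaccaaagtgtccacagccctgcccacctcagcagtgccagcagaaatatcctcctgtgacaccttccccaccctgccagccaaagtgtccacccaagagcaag
SPRR2A: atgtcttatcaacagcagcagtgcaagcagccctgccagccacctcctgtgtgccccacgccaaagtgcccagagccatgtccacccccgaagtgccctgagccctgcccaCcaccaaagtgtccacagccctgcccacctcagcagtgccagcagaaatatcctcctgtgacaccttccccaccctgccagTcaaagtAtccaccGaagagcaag
SPRR2B: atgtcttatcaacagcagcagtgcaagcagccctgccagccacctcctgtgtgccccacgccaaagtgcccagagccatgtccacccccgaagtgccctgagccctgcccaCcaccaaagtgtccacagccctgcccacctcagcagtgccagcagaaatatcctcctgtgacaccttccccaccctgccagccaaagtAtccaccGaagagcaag
SPRR2A differed from SPRR2D at 4 positions (98.1% identity) and SPRR2B at 3 (98.6% identity). Of the 751 windows of 50 bases in the SPRR2D transcript, 26.8% also occurred in transcripts of SPRR2A, SPRR2B, SPRR2C, SPRR2E, SPRR2F or SPRR2G, and reads from those stretches cannot be assigned with certainty. KRTAP3-1 shared no window with another gene.

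Promoters of the other members are shown because 3 of the 4 genes had higher values in the same libraries and IGFL1 moved with LPS. The RefSeq promoter table (GRCh38.p14, a later build than the one the authors used) held 3 of the 4 genes. Each sequence runs from 250 bases before to 50 bases after the annotated start, and capitals mark a motif match.
KRTAP3-1 (chr17:41009079-41009378, minus strand): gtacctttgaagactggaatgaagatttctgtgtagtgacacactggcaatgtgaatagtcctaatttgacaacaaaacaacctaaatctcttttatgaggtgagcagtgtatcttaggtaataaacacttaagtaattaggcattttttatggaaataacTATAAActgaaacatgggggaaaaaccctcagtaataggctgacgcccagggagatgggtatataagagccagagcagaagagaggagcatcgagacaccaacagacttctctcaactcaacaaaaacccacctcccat
KRT37 (chr17:41424536-41424835, minus strand): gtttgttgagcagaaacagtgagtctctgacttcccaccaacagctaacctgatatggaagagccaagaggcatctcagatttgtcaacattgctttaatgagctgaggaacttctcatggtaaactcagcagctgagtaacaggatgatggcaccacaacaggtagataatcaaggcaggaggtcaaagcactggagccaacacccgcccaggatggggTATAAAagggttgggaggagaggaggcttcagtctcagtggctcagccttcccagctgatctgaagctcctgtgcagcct
IGFL1 (chr19:46229492-46229791, plus strand): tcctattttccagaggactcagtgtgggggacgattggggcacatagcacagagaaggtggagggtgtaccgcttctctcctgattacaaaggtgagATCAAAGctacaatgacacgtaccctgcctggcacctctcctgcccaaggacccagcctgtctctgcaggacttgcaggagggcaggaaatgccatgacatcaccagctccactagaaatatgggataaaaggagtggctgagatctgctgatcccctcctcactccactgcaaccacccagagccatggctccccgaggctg
Each motif was searched on both strands, and no match overlapped another. The exact string TATAAA, a core promoter motif, began at -30 from the start in KRT37 and at -89 in KRTAP3-1. It is held by 11.5% of the 35116 promoters in the table. Variants of this string were not searched, so the tatataag closer to the start in KRTAP3-1 and the gataaaag in IGFL1 are unmarked. In IGFL1 the reverse complement of CTTTGAT, a LEF1/TCF motif held by 2.62% of promoters, began at -153. Variants of this motif were not searched either, so strings such as the ctttgaa near the beginning of the KRTAP3-1 sequence are unmarked. The AP-1 motif TGANTCA, held by 7.71% of promoters, and the NF-kB consensus, held by 11.3%, were not found in these 3 windows.

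SPRR2D was above 10 FPKM with the hairpin and near 1 FPKM without it. Its FPKM were 11.8, 13.3 and 12.7 in PINT shRNA1+LPS, 10.5, 11.8 and 13.4 in PINT shRNA1, 1.54, 1.44 and 0.991 in LPS, and 0.521, 1.36 and 1.04 in control libraries. Every hairpin library was far above every library without a hairpin, whether or not LPS was added, and the groups that differ in LPS alone overlapped. Means were 12.6 ± 0.788 FPKM in PINT shRNA1+LPS and 11.9 ± 1.46 FPKM in PINT shRNA1, against 1.32 ± 0.292 FPKM in LPS and 0.972 ± 0.422 FPKM in control (SD, n = 3 each). On the log2(FPKM + 0.5) scale, which understates changes of low genes, PINT shRNA1 exceeded control by 3.12 ± 0.197 (SE) and PINT shRNA1+LPS exceeded LPS by 2.86 ± 0.197. Among the genes eligible for naming, those called, without overlap, and reaching a mean of 1 FPKM in either group, SPRR2D ranked 1 of 3936 by increase in the first difference and 2 of 4228 in the second.

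KRTAP3-1 was the most abundant of the 4 genes in the hairpin libraries. Its FPKM were 20.7, 17.9 and 17.1 in PINT shRNA1+LPS, 15.9, 15.4 and 16.0 in PINT shRNA1, 3.49, 3.35 and 3.77 in LPS, and 3.29, 2.88 and 3.72 in control libraries. The hairpin libraries again all stood above the others, and the gene was detected at a steady level without the hairpin too. Means were 18.6 ± 1.88 FPKM in PINT shRNA1+LPS and 15.8 ± 0.322 FPKM in PINT shRNA1, against 3.54 ± 0.216 FPKM in LPS and 3.30 ± 0.418 FPKM in control (SD, n = 3 each). The log2 difference was 2.11 ± 0.0914 (SE) for PINT shRNA1 against control and 2.24 ± 0.0914 for PINT shRNA1+LPS against LPS, which ranked 4 and 5 by increase among the eligible genes.

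KRT37 was near the floor of the table without the hairpin. It had 2.30, 2.18 and 2.30 FPKM in PINT shRNA1+LPS, 1.92, 2.17 and 1.75 FPKM in PINT shRNA1, 0.338, 0.130 and 0.251 FPKM in LPS, and 0.264, 0.240 and 0.184 FPKM in control libraries. None of the 6 libraries without the hairpin reached 0.5 FPKM, and all 6 with it did, so KRT37 passed the filter on low values (0.5 FPKM in at least 3 libraries) through the hairpin libraries alone. SPRR2D, KRTAP3-1 and IGFL1 reached 0.5 FPKM in 12 of 12 libraries. Group means of KRT37 were 2.26 ± 0.0702 FPKM in PINT shRNA1+LPS and 1.95 ± 0.213 FPKM in PINT shRNA1, against 0.240 ± 0.104 FPKM in LPS and 0.229 ± 0.0406 FPKM in control (SD, n = 3 each). The log2 difference was 1.74 ± 0.122 (SE) for PINT shRNA1 against control and 1.91 ± 0.122 for PINT shRNA1+LPS against LPS, ranks 8 and 11 by increase. The first of these was 2.64 with a pseudocount of 0.1 and 1.26 with a pseudocount of 1, since KRT37 is so low without the hairpin.

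IGFL1 had the opposite pattern: it was lowest with the hairpin and, without it, highest with LPS. Its FPKM were 1.14, 1.18 and 1.31 in PINT shRNA1+LPS, 1.63, 1.09 and 1.33 in PINT shRNA1, 5.95, 5.89 and 7.37 in LPS, and 2.16, 2.57 and 2.09 in control libraries. The LPS libraries were above all others, the control libraries came next, and the hairpin groups were lowest and overlapped each other. Means were 1.21 ± 0.0885 FPKM in PINT shRNA1+LPS and 1.35 ± 0.270 FPKM in PINT shRNA1, against 6.40 ± 0.837 FPKM in LPS and 2.28 ± 0.261 FPKM in control (SD, n = 3 each). The log2 difference of LPS against control was 1.31 ± 0.126 (SE). With the hairpin, PINT shRNA1+LPS against PINT shRNA1 gave -0.11 ± 0.126. PINT shRNA1+LPS lay below LPS by a log2 difference of -2.01 ± 0.126, and PINT shRNA1 below control by -0.59 ± 0.126. The difference between the LPS responses was -1.42 ± 0.179, the lowest of the 19 genes eligible for naming in that contrast, in which 0.128% of all genes were called. These libraries are bulk RNA, so fewer cells expressing a gene and less RNA per cell cannot be told apart for any of the 4 genes.

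**Figure D1:**
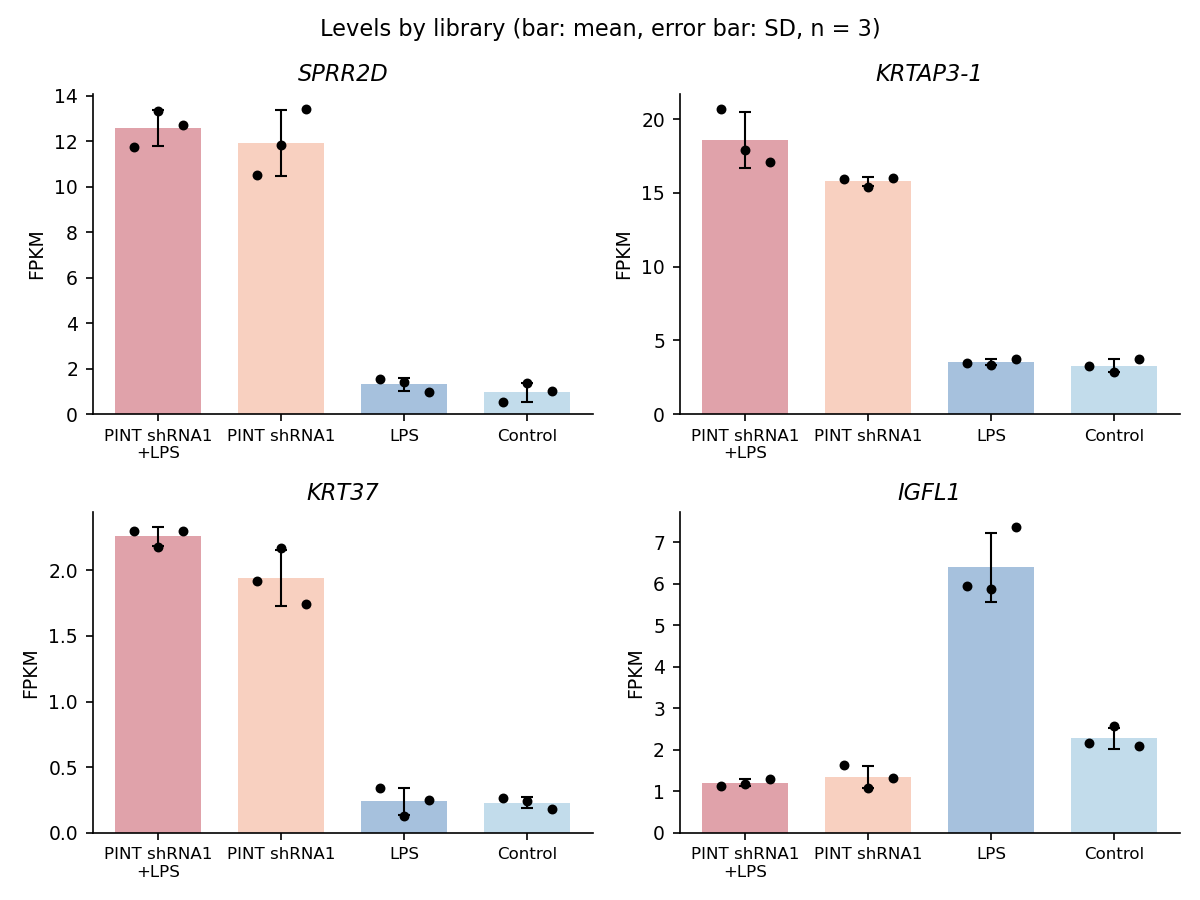
FPKM of SPRR2D, KRTAP3-1, KRT37 and IGFL1 in each library (points), with bars for the group mean and error bars for the SD (n = 3), by group. SPRR2D, KRTAP3-1 and KRT37 are high in both hairpin groups, while IGFL1 averages 1.21 FPKM in PINT shRNA1+LPS and 6.40 FPKM in LPS.

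Groups without overlap were common over all genes in the hairpin comparisons. Between PINT shRNA1 and control, 3 of the 4 members were higher without overlap and 1 was lower. Over the 17214 genes tested, 25.6% were higher without overlap and 15.8% lower, and 16.9% were called higher and 10.3% called lower by limma at an adjusted p under 0.05. Between PINT shRNA1+LPS and LPS the same 3 members were higher and IGFL1 was lower, where 27.7% of all genes were higher without overlap and 18.1% lower, and limma called 17.7% higher and 11.6% lower. The median log2 difference of all tested genes was 0.0567 for the first pair and 0.0534 for the second. The members were picked on these differences.

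The response of SPRR2D, KRTAP3-1 and KRT37 to LPS was not the contrast that picked them, and was tested with limma, adjusted over all 17214 genes. It uses the same libraries as the hairpin differences that picked them, so the tests are not independent of that choice. Of 5 tests (SPRR2D and KRTAP3-1 in LPS against control, and all 3 genes in PINT shRNA1+LPS against PINT shRNA1), 0 were called, and 1 had an unadjusted p under 0.05. The background share called was 2.76% for LPS against control and 0.186% for PINT shRNA1+LPS against PINT shRNA1. In LPS against control, the log2 difference of SPRR2D was 0.34 with a 95% interval of -0.096 to 0.77 (limma, adjusted p = 0.428). Without control replicate 1 the SPRR2D value was 0.097. That of KRTAP3-1 was 0.093, from -0.11 to 0.295 (limma, adjusted p = 0.660). KRT37 was not tested in this contrast, since all 6 libraries lie under the low-value filter and a response could not be read from them.

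In the hairpin cells KRTAP3-1 had the unadjusted p under 0.05. Its PINT shRNA1+LPS libraries were all above its PINT shRNA1 libraries, by 0.23 ± 0.0914 (SE) on the log2 scale with an interval of 0.023 to 0.43 (limma, unadjusted p = 0.032, adjusted p = 0.512). The KRT37 groups did not overlap either, with a difference of 0.18 and an interval of -0.092 to 0.45 (limma, adjusted p = 0.730), and 6.08% of all genes were higher without overlap in this comparison. SPRR2D differed by 0.081, from -0.35 to 0.52 (limma, adjusted p = 0.941), with overlapping groups. The LPS response with the hairpin minus that without it was -0.26 ± 0.279 (SE) for SPRR2D, 0.13 ± 0.129 for KRTAP3-1 and 0.16 ± 0.172 for KRT37. It equals the difference between the hairpin contrasts that picked the genes, so it is a description with no test.

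**Figure D2:**
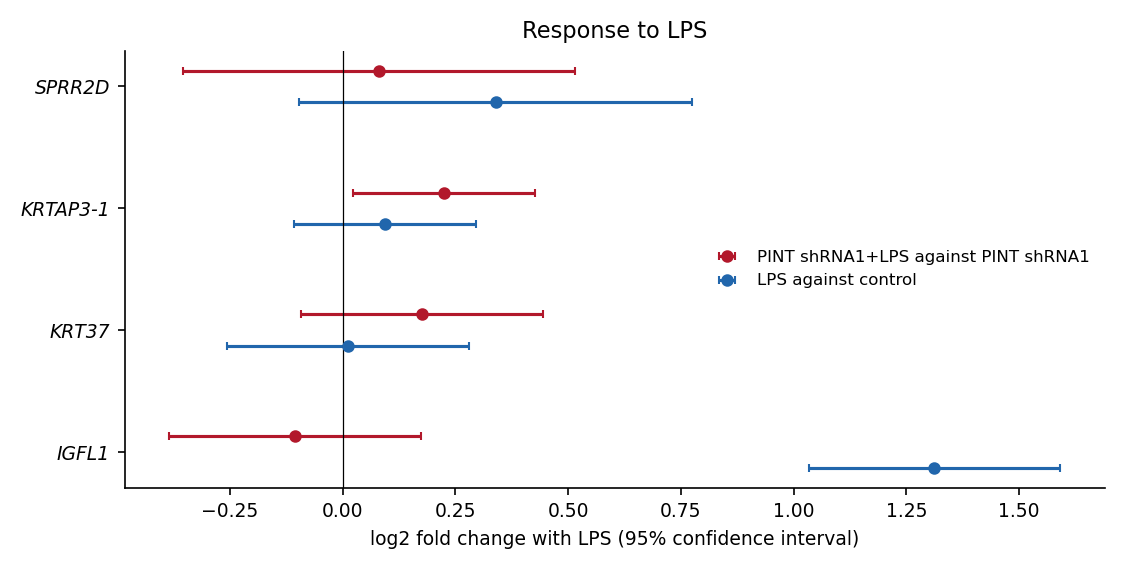
Log2 differences on the log2(FPKM + 0.5) scale, with 95% intervals, for the response of each gene to LPS with the hairpin and without it. IGFL1 has the largest difference of the 4 genes without the hairpin, at 1.31, and -0.11 with it. IGFL1 was picked on the difference between these responses, so its intervals are no test. KRT37 without the hairpin was not tested either.

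SPRR2A, a close relative in sequence, had a like pattern at a lower level. Its FPKM were 0.980, 1.04 and 1.3 in PINT shRNA1+LPS, 1.13, 1.03 and 1.01 in PINT shRNA1, 0.248, 0.0554 and 0.272 in LPS, and 0.0376, 0.203 and 0.212 in control libraries. Its log2 difference was 1.27 ± 0.162 (SE) in PINT shRNA1 against control and 1.23 in PINT shRNA1+LPS against LPS. These are descriptions: like KRT37, it passed the low-value filter through the hairpin libraries alone, and 32.7% of its windows are shared with its relatives, SPRR2D included. SPRR2B had 0.397, 0.528 and 0.455 FPKM in PINT shRNA1+LPS, 0.528, 0.385 and 0.361 FPKM in PINT shRNA1, 0.159, 0.0233 and 0.0476 FPKM in LPS, and 0, 0 and 0.0474 FPKM in control libraries, and did not pass the filter. Reads of these 3 genes cannot be fully told apart, so which of them carries the signal of the shared stretches was not tested. Of the 12 SPRR genes listed, 11 were in the table, 3 were at 0 in every library, and SPRR2A was the only 1 tested besides SPRR2D.

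Other cornified envelope genes gave no shared direction with SPRR2D. Of 39 genes listed, all in the table, 9 were at 0 in every library and 7 were tested. In PINT shRNA1 against control, HRNR, a large S100-fused envelope protein, rose by a log2 difference of 0.50 ± 0.0955 (limma, adjusted p = 0.00300) to a mean of 0.960 ± 0.0247 FPKM, against 0.532 ± 0.0810 FPKM in control (SD, n = 3 each). PPL, the envelope plakin periplakin, fell by a log2 difference of 0.95 ± 0.134 (limma, adjusted p = 0.000510). The other 5 did not pass the test. In this pair 16.9% of all genes were called higher and 10.3% lower, so 1 gene of 7 in either direction does not set the list apart. The list's median was -0.095, against 0.0567 over all genes.

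KRT37 has an antisense neighbour that shared its pattern at a higher level. AC003958.2 (ENSG00000234859), on the opposite strand over KRT37, had 5.95, 6.27 and 4.67 FPKM in PINT shRNA1+LPS, 6.10, 5.70 and 5.19 FPKM in PINT shRNA1, 0.816, 0.999 and 0.485 FPKM in LPS, and 0.983, 0.739 and 0.872 FPKM in control libraries. The hairpin libraries did not overlap the others, and the log2 difference between PINT shRNA1 and control was 2.18 ± 0.158 (SE). Between PINT shRNA1+LPS and LPS it was 2.29. Of the 1426 windows of the KRT37 transcript, 45.2% also occur in transcripts of AC003958.2, KRT38 or the pseudogene KRT41P. Whether the authors' counting used strand is not given in the sources used here, so reads of KRT37 and of its antisense partner cannot be told apart. AC003958.2 was chosen after its values were seen, and its differences are given as descriptions. The antisense gene at IGFL1, listed as AC006262.10, had at most 0.123 FPKM in any library.

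**Figure D3:**
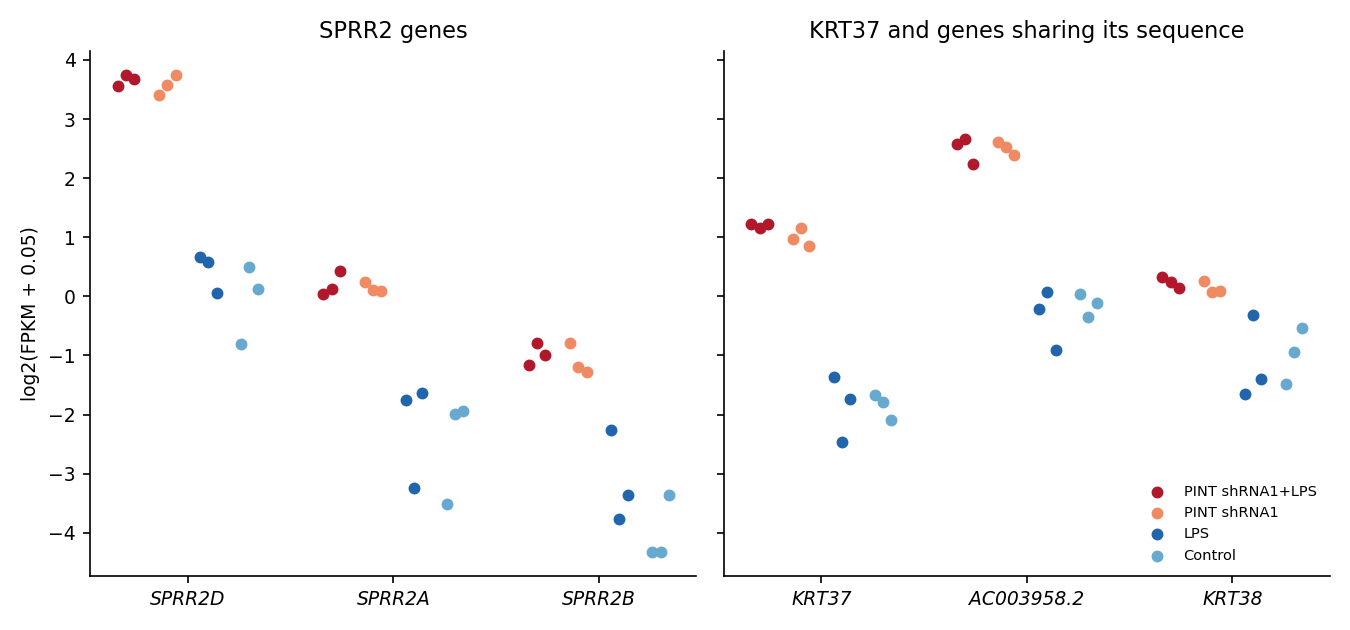
Levels of SPRR2D with SPRR2A and SPRR2B, and of KRT37 with AC003958.2 and KRT38, as log2(FPKM + 0.05) in each library by group. Each gene sits higher in the hairpin libraries, and SPRR2A and SPRR2B lie below SPRR2D in every group.

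The hair keratins abundant enough to test without the hairpin rose with it, apart from KRT39 in the LPS-treated pair. Of 17 listed, 6 were tested besides KRT37, and 4 of them (KRT81, KRT86, KRT32 and KRT39) passed the low-value filter in the libraries without the hairpin. In PINT shRNA1 against control 4 of these 4 rose, with a median log2 difference of 0.73, where 16.9% of all genes were called higher. In PINT shRNA1+LPS against LPS 3 of the 4 rose, with a median of 0.64, where 17.7% were called higher. KRT81 was the most abundant, at 22.7 ± 0.965 FPKM in PINT shRNA1+LPS and 21.1 ± 2.14 FPKM in PINT shRNA1, against 9.04 ± 0.796 FPKM in LPS and 9.23 ± 0.122 FPKM in control (SD, n = 3 each). Between PINT shRNA1 and control its log2 difference was 1.15 ± 0.080 (limma, adjusted p = 4.03e-06). KRT39 rose by 0.78 ± 0.175 in that pair (limma, adjusted p = 0.00779), while its 0.43 in PINT shRNA1+LPS against LPS did not pass (limma, adjusted p = 0.0869). In PINT shRNA1 against control KRT32 rose by 0.68 and KRT86 by 0.53, and both passed in the other pair too. KRT31 and KRT38 gave 0.70 and 0.69, but would not have passed the low-value filter without the hairpin libraries. KRT34, too low to test, was not higher with the hairpin, at 0.0291 FPKM over the hairpin libraries and 0.0337 FPKM over the others (means). In KRT81 44.6% and in KRT86 40.5% of windows occur in other genes, and these 2 genes overlap, so their levels are uncertain. KRT86 also overlaps KRT7, which had 6.27 to 8.23 FPKM in PINT shRNA1 and 2.74 to 3.66 FPKM in control libraries. KRT39 has an antisense gene, AC004231.2, at 0.629 to 0.727 FPKM in PINT shRNA1 and 0.328 to 0.363 FPKM in control libraries. Both were named after their values were seen. Their share in the reads of KRT86 and KRT39 was not tested.

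**Figure D4:**
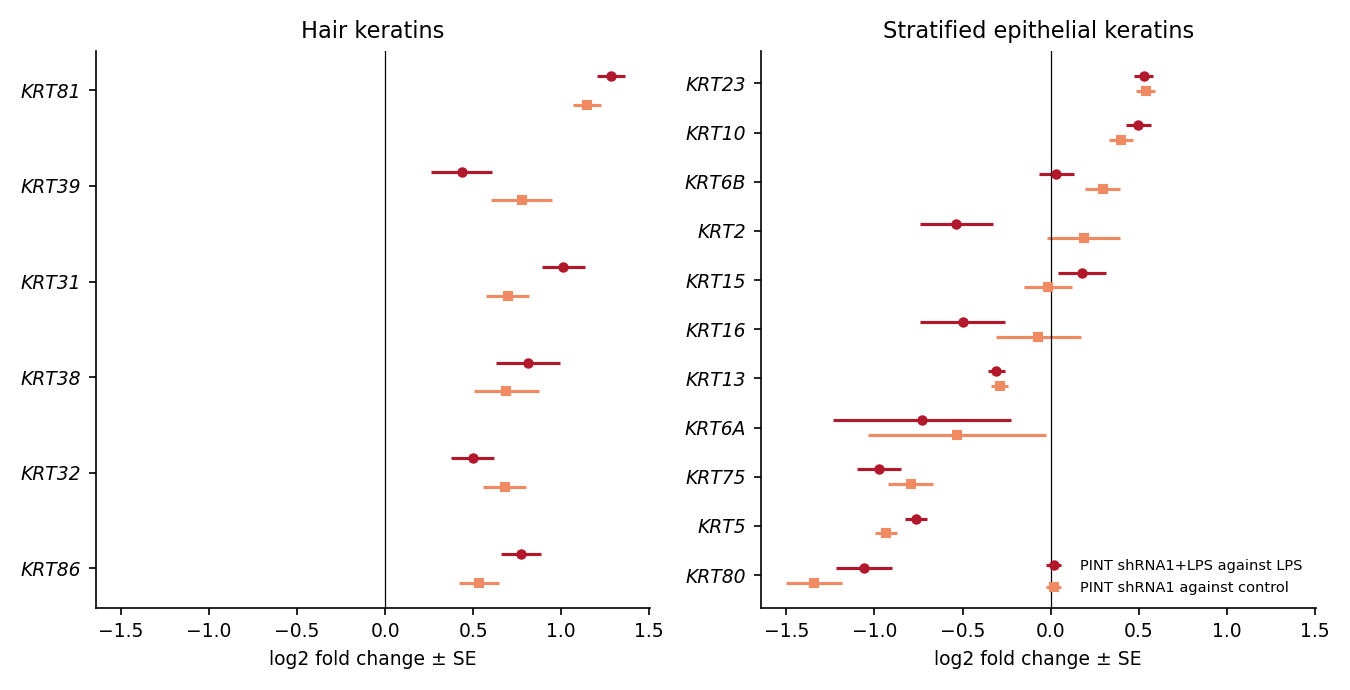
Log2 differences with their SE for hair keratins and stratified epithelial keratins in PINT shRNA1+LPS against LPS and in PINT shRNA1 against control. The hair keratins lie between 0.43 and 1.28 besides KRT37, while stratified keratins lie on both sides of 0.

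The keratins of stratified epithelia moved in both directions. Of 23 listed, 11 were tested, of which 3 rose, 4 fell and 4 did not pass in PINT shRNA1 against control, with a median of -0.069. Over all genes 16.9% were called higher and 10.3% lower. KRT23 rose by a log2 difference of 0.54 (limma, adjusted p = 4.02e-05), to 223.7 ± 10.4 FPKM in PINT shRNA1, against 153.8 ± 8.83 FPKM in control (SD, n = 3 each). KRT5, the basal-layer keratin, fell by 0.93 ± 0.0633 (limma, adjusted p = 3.44e-06), with 290.3 ± 8.79 FPKM in PINT shRNA1 and 555.2 ± 29.1 FPKM in control (SD, n = 3 each). KRT80 fell by 1.34 and KRT75, the hair-follicle companion-layer keratin, by 0.80.

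These keratins bear on the description of the genes as skin-type and ectopic. Summed FPKM of 15 keratinocyte markers was 367.5 to 433.6 in PINT shRNA1+LPS, 331 to 356 in PINT shRNA1, 624.5 to 671.5 in LPS and 585 to 648 in control libraries, and KRT5 supplied most of it. The markers KRT14, TP63, DSG1, DSG3, DSC1, COL17A1, LY6D and KRT1 were under 0.5 FPKM in every library. Of the 15, 7 were tested in PINT shRNA1 against control, where 16.9% of all genes were called higher and 10.3% lower. KRT10 rose by 0.40 (limma, adjusted p = 0.00176), KRT5 fell and 5 did not pass. A stratified keratin was thus abundant in control cells, and IGFL1 was lower with the hairpin, so the genes are called by their symbols here. Of 16 colorectal epithelial markers, KRT20, CDX1, CDH17, CEACAM5, CEACAM6, LGR5, GPA33 and MUC2 were under 0.5 FPKM in every library. The sum of the 16 was 1621 to 1790 FPKM in hairpin libraries, against 2489 to 2807 FPKM in the others. In PINT shRNA1 against control 6 of the 8 tested fell, where 10.3% of all genes were called lower. In PINT shRNA1+LPS against LPS 5 of the 8 fell and 1 did not pass, where 11.6% were called lower. The other 2 rose in both pairs: in PINT shRNA1 against control CDX2, an intestinal transcription factor, by 0.38 (limma, adjusted p = 0.0139) and AXIN2, a Wnt target, also by 0.38 (limma, adjusted p = 2.09e-05). The part of these marker shifts in the members' values was not tested.

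Few keratin-associated protein and IGFL genes were abundant enough to test. Of 109 KRTAP genes listed, 37 were at 0 in every library, and KRTAP2-3 was the only 1 tested besides KRTAP3-1. KRTAP2-3 rose in LPS against control by a log2 difference of 0.72 ± 0.122 (limma, adjusted p = 0.0109). It fell by 0.49 in PINT shRNA1+LPS against LPS (limma, adjusted p = 0.0117), and its -0.15 in PINT shRNA1 against control did not pass (limma, adjusted p = 0.389). IGFL4, a relative of IGFL1, had 12.8 ± 0.896 FPKM in PINT shRNA1+LPS, against 15.9 ± 1.70 FPKM in LPS (SD, n = 3 each), and fell by 0.30 in that pair (limma, adjusted p = 0.0175). Its 0.23 in LPS against control did not pass (limma, adjusted p = 0.179). IGFLR1, the receptor gene, rose by 0.64 ± 0.165 in PINT shRNA1 against control (limma, adjusted p = 0.0156), while its -0.13 in PINT shRNA1+LPS against LPS did not pass (limma, adjusted p = 0.604). IGFL2 gave 0.86 in the first of these pairs and 0.10 in the second. It only just passed the low-value filter, at 0.506 and 0.539 FPKM in PINT shRNA1 libraries and 0.505 FPKM in an LPS library. Without the hairpin libraries it would not have passed.

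Transcription factors and other regulators of epidermal and hair differentiation were split. Of 30 listed, 22 were tested, of which 4 rose, 6 fell and 12 did not pass in PINT shRNA1 against control, with a median of -0.0063, against the same 16.9% and 10.3% over all genes. LEF1, a Wnt-pathway factor of hair follicle cells, rose by a log2 difference of 0.47 (limma, adjusted p = 3.34e-05), with 28.0 ± 1.15 FPKM in PINT shRNA1 and 20.1 ± 0.660 FPKM in control (SD, n = 3 each). VDR, the vitamin D receptor, fell by 0.52 and SOX9, a factor of follicle and intestinal crypt stem cells, fell by 0.42. Their relation to the 4 genes was not tested.

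By position, KRTAP3-1 and KRT37 belong to the type I keratin and keratin-associated protein cluster of chromosome 17. Apart from them, 57 genes of the cluster were above 0 in at least 1 library. In 7 of these (KRT10, KRT23, KRTAP3-3, KRTAP3-2, KRT31, KRT38 and KRT32) all 6 hairpin libraries were above all 6 others, and in 2 (KRT13 and KRT19) all were below. Over the whole table, 6.81% of 40562 genes above 0 were higher in this way and 3.69% lower. Of the 7, KRTAP3-3 lay near the floor, at 0.020 to 0.057 FPKM in hairpin libraries and 0 to 0.018 FPKM in the others. It was too low to be tested, and more genes were above 0 in the hairpin libraries. KRTAP3-2, which lies beside KRTAP3-1, had 0.320 ± 0.119 FPKM in PINT shRNA1+LPS and 0.438 ± 0.158 FPKM in PINT shRNA1, against 0.0660 ± 0.0711 FPKM in LPS and 0.0443 ± 0.0639 FPKM in control (SD, n = 3 each), and was too low to be tested. Of the 24 protein-coding genes next to the 4 members (3 on either side of each), 7 were tested in PINT shRNA1 against control. Of these, 3 passed the low-value filter in the libraries without the hairpin, and 1 of them, KRT32, rose, where 16.9% of all genes were called higher. SPRR2A, KRT31, KRT38 and IGFL2 passed the filter with the help of the hairpin libraries in which they are high, so their increases are no independent count.

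**Figure D5:**
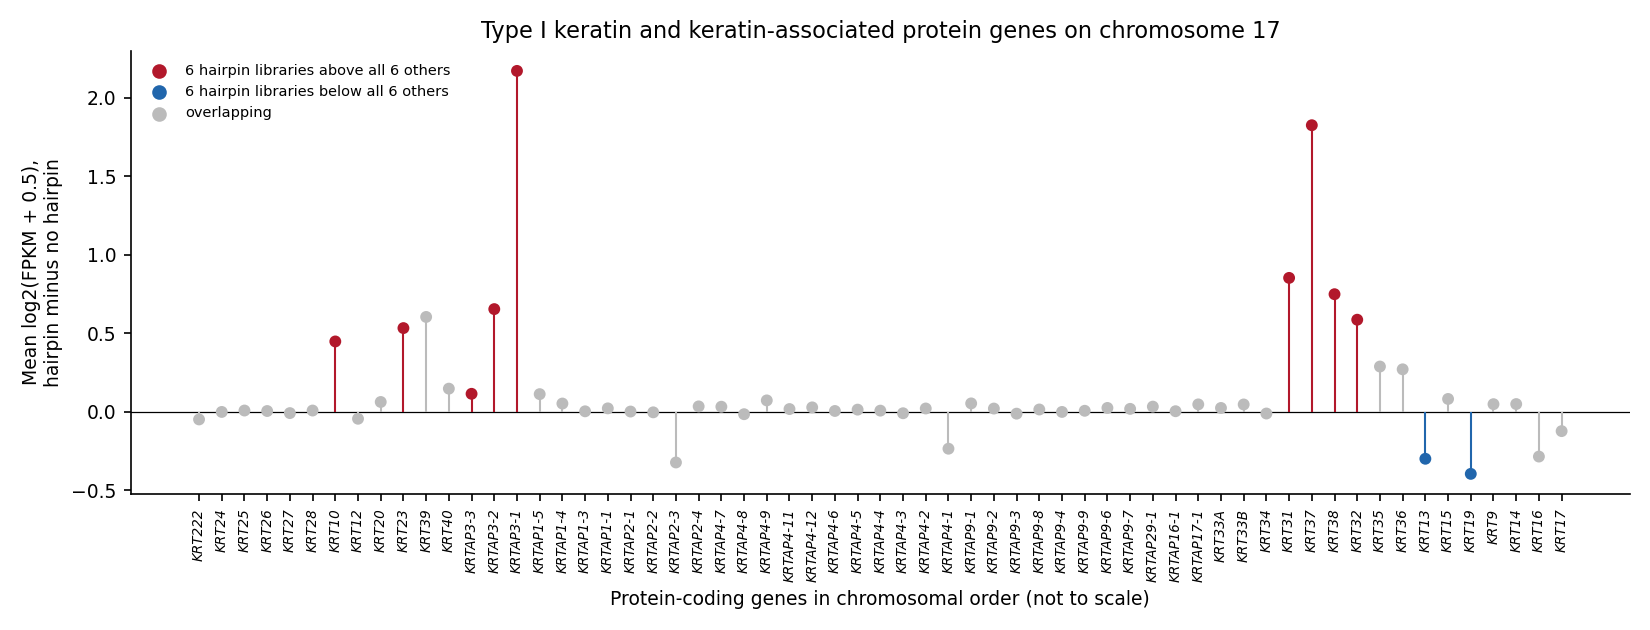
Mean log2 level of hairpin libraries minus that of libraries without the hairpin for each gene of the chromosome 17 keratin cluster, in gene order. KRTAP3-1 and KRT37 stand above the other genes, with genes higher in all 6 hairpin libraries on either side and KRT13 and KRT19 below 0.

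The 3 genes that were high with the hairpin followed each other closely across the 12 libraries. Pearson's r of log2(FPKM + 0.5) was 0.978 between SPRR2D and KRTAP3-1, 0.976 between SPRR2D and KRT37, and 0.989 between KRTAP3-1 and KRT37, and IGFL1 gave -0.75 to -0.80 with them. The libraries fall in separate groups and the genes were picked on the group difference, so these r values describe that difference and carry no p. Most like SPRR2D among genes with a named symbol was TOMM34 (r = 0.991), followed by SLC26A6 (r = 0.991) and CST1 (r = 0.989). LRRC55 was most like both KRTAP3-1 (r = 0.995) and KRT37 (r = 0.995), with 2.84 FPKM in PINT shRNA1+LPS and 2.47 FPKM in PINT shRNA1, against 0.622 FPKM in LPS and 0.568 FPKM in control (means of 3 libraries). Next came MT-TL1 (r = 0.994) and ASAP1 (r = 0.992) for KRTAP3-1, and RIMS4 (r = 0.991) and MT-TL1 (r = 0.991) for KRT37. For IGFL1 they were PDP1 (r = 0.984), GPRC5B (r = 0.977) and C6orf62 (r = 0.976), and GPRC5B had 1.51 FPKM in PINT shRNA1+LPS and 1.45 FPKM in PINT shRNA1, against 4.31 FPKM in LPS and 1.99 FPKM in control (means of 3 libraries).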

How the data were processed

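The deposited values are FPKM, which the authors computed for each Ensembl gene. Per the submitters' processing notes, the tools were StringTie 1.3.4d, HISAT2 2.1.0 and fastp, with GRCh37/hg19 as the build, and the role of each is not given. Groups came from the sample labels, and the 6 labelled PINT shRNA1 samples (2 for each of 3 RNA numbers) have 1 column for each number. Another 6 columns match no label and were not used. Absolute depth cannot be had from FPKM, so no counting error is given. Relative depth was the most frequent ratio of low values between libraries.

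Of 57905 genes, the 17214 that reached 0.5 FPKM in 3 or more of 12 libraries were put on the log2(FPKM + 0.5) scale and fitted in R 4.3.3 (limma 3.58.1), in 1 group-means fit with an intensity trend, two-sided, Benjamini-Hochberg adjusted over all genes and called under 0.05. The pipeline was tested on simulated data. The members and the gene lists were chosen with earlier results of these data known. Genes named are the members, list genes that pass the filter (the 4 with the smallest p in PINT shRNA1 against control and the 2 most abundant, in longer lists), the 3 protein-coding neighbours on either side, the 3 genes of highest r, LINC-PINT, and further genes where a count of 5 or fewer, the marker checks or the chromosome 17 cluster call for them, chosen after their values were seen. Some planned tests of members are not given: those of IGFL1, whose LPS response is part of the difference it was picked for, the difference of LPS responses for the other 3, and KRT37 in LPS against control, where it lies under the filter. Shared sequence was counted in windows of 50 bases in GENCODE 29 transcripts, which are of another build than the authors' table, and promoters are from RefSeq. A gene that the naming rule picks is not reported here. The search motifs were chosen with the promoter sequences in view. Alternatives were other pseudocounts, filters, scalings, moderation, groups in the fit, a replicate block and leaving out each library.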

Additional observations from a re-analysis of the deposited data

Results flagged for a closer look

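The IGFL1 response to LPS differed between cells with and without the hairpin: the log2 difference of LPS against no LPS with the hairpin minus that without it was -1.417. IGFL1 had 1.14, 1.18 and 1.31 FPKM in PINT shRNA1+LPS, against 1.63, 1.09 and 1.33 FPKM in PINT shRNA1, and 5.95, 5.89 and 7.37 FPKM in LPS, against 2.16, 2.57 and 2.09 FPKM in control libraries. What drew attention to it is the difference between the LPS responses itself, which also served to pick the gene, so no p is given.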

How the results depend on the processing

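SPRR2D, KRTAP3-1 and KRT37 kept a positive hairpin difference in 126 of 126 values under the alternatives run (1.26 to 3.57). The IGFL1 difference between LPS responses stayed negative in 20 of 20 (-1.58 to -1.26). The genes were picked on these differences, so the kept signs are no independent support. Alternatives that change only the filter, the spread or libraries outside the pair leave a hairpin difference unchanged. Sizes moved with the pseudocount. With 0.1 and then 1, PINT shRNA1 against control gave 3.57 and 2.73 for SPRR2D, 2.23 and 1.97 for KRTAP3-1, and 2.64 and 1.26 for KRT37, and PINT shRNA1+LPS against LPS gave 3.18 and 2.56, 2.36 and 2.11, and 2.84 and 1.40 for the same genes. IGFL1 gave -2.31 and -1.74 in the second pair and -1.58 and -1.26 in the difference of LPS responses. Quantile normalization gave 1.61 for KRT37 in PINT shRNA1 against control. Of 105 tested member values under alternatives 0 were called (limma, adjusted p 0.205 to 0.999). Leaving out each library turned the sign of small values: KRT37 in LPS against control ranged from -0.083 to 0.12, and in PINT shRNA1+LPS against PINT shRNA1 SPRR2D ranged from -0.0031 to 0.17 and IGFL1 from -0.21 to 0.00083. SPRR2D in LPS against control ranged from 0.097 (without control replicate 1) to 0.53 (without control replicate 2).

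Counts over all genes moved more. LPS against control called 475 genes, 127 in a fit of the groups compared alone and 288 to 411 without 1 library (288 without LPS replicate 3, 295 without control replicate 2). PINT shRNA1+LPS against PINT shRNA1 called 32, with 59 under median scaling, 57 under quantile normalization, 18 without the trend and 19 to 40 without 1 library. Of 18 same-numbered pairs of libraries, 0 deviated together with a correlation over 0.1, so no pairing by number was seen. With 3 libraries a group this cannot show that the samples are unpaired. With the replicate block, LPS against control called 311 genes, PINT shRNA1+LPS against PINT shRNA1 17 and the difference of LPS responses 14, against 22 without it. No tested value of SPRR2D, KRTAP3-1 and KRT37 was called with the block, and IGFL1 was not tested. Depth is unknown, so counting error of low values such as KRT37 without the hairpin cannot be given.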
